A study of Homo sapiens with 11 samples.

Results

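The miR-26 family was followed in SH-SY5Y human neuroblastoma cells that were differentiated into neuron-like cells with and without hydrogen peroxide (H2O2). The 5 mature miRNAs of the family (hsa-miR-26a-5p with its 3p partners hsa-miR-26a-1-3p and hsa-miR-26a-2-3p, and hsa-miR-26b-5p with hsa-miR-26b-3p) were taken by name from the 2576 mature miRNAs of the small RNA count tables, and all 5 passed the filter on low counts in both experiments. All cells received 10 µM all-trans retinoic acid (ATRA) for 7 days, the agent that drives the differentiation, so the controls were differentiated cells too. In the co-treatment experiment 3 libraries also received 10 µM H2O2 during the 7 days and 3 control libraries received none. In the pre-treatment experiment 3 libraries received 10 µM H2O2 for 3 days before ATRA, and 2 control libraries received none, and any further control of this experiment was not analysed here. SH-SY5Y is a subline of SK-N-SH, a tumour line that also gives epithelial-like cells, which limits it as a model of neurons. The study's methods call its replicates biological, while the labels do not tie libraries to separate cultures, and p-values measure the spread between these libraries.

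A miRNA hairpin is cut into a 5p and a 3p arm, and the arm that is loaded into an Argonaute protein represses mRNAs that pair with its seed, bases 2 to 8. The miR-26 hairpins lie in introns of CTDSPL, CTDSP2 and CTDSP1, which encode small phosphatases that act on RNA polymerase II and are recruited by REST, the repressor of neuronal genes in non-neuronal cells. The miR-26 family is known for repressing the CTDSP phosphatases themselves and the chromatin repressor EZH2, and for rising as neural progenitors become neurons. The mRNAs of the hosts and targets were not analysed here.

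The mature sequences (RefSeq, 5′ to 3′, seed in capitals) are shown because which arms share a seed, and how much G and C each holds, bear on the results.
hsa-miR-26a-5p: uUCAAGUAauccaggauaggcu
hsa-miR-26b-5p: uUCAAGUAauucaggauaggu
hsa-miR-26a-1-3p: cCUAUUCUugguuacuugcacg
hsa-miR-26a-2-3p: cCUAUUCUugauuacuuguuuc
hsa-miR-26b-3p: cCUGUUCUccauuacuuggcu
Both 5p arms share the seed UCAAGUA and differ at 2 of 21 compared positions, C11U and C21U (the base of miR-26a-5p, the position from its 5′ end, then the base of miR-26b-5p). The 3p arms of the miR-26a hairpins share the seed CUAUUCU and differ at 5 of 22 positions, G11A, C19U, A20U, C21U and G22C (miR-26a-1-3p first). The seed of miR-26b-3p differs from theirs by A4G. Both substitutions between the 5p arms replace a C with a U, and GC content was 40.9% in miR-26a-5p and 33.3% in miR-26b-5p. Among the 3p arms GC content was 45.5% in miR-26a-1-3p, 31.8% in miR-26a-2-3p and 47.6% in miR-26b-3p.

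Among 2370 mature miRNA names of RefSeq, 4 carried the seed UCAAGUA, and the 2 outside the family are shown as its only seed partners in that table.
hsa-miR-1297: uUCAAGUAauucaggug
hsa-miR-4465: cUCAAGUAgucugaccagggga
Both had 0 counts in each of the 11 libraries. Among the 2262 miRNAs of the count tables matched to RefSeq, all counts with this seed thus came from the 2 miR-26 5p arms. The unmatched miRNAs were not searched for it. With totals of 5343953 to 8927582 counts per library, a count of 0 allows up to 3 counts, by counting error only.

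On GRCh37, the hairpin MIR26A1 lay at chr3:38010895-38010971 on the plus strand in CTDSPL. It was intronic in 4 of 5 coding transcripts of that gene. MIR26A2 lay at chr12:58218392-58218475 on the minus strand in CTDSP2, intronic in 5 of 5 coding transcripts, and MIR26B lay at chr2:219267369-219267445 on the plus strand in CTDSP1, intronic in 12 of 12. Each hairpin was on the strand of its host and overlapped no exon of it. The sequence of miR-26a-5p occurred at 2 places in GRCh37, one in each miR-26a hairpin, and each other member occurred at 1. The 2 miR-26a hairpins were identical over 24 bases that begin with the first base of miR-26a-5p, so a read of this arm cannot be assigned to CTDSPL or CTDSP2. The 3p arms tell them apart.

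miR-26b-5p was the abundant member. It made up 98.5% to 99.5% of the family's counts and ranked between the 7th and the 15th most counted miRNA in the 11 libraries. Its level was 35169 ± 5535 CPM (counts scaled to a common library total with TMM factors, SD, n = 3) in co-treatment controls, 21430 ± 5616 (n = 3) with H2O2, 15960 ± 2216 (n = 2) in pre-treatment controls and 33790 ± 2577 (n = 3) after H2O2. The other 4 members lay between 11.9 and 132 CPM in every library. Because of miR-26b-5p, the family took 3.41% ± 0.191 of all counts in co-treatment controls and 2.21% ± 0.478 with H2O2, and 1.61% ± 0.411 in pre-treatment controls and 3.44% ± 0.292 after H2O2.

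When the 11 libraries were scaled together, miR-26b-5p spanned 28226 to 37394 CPM in co-treatment controls and 33239 to 37718 in pre-treatment H2O2 libraries, ranges that overlapped. It spanned 14773 to 25194 CPM in co-treatment H2O2 libraries and 13982 to 18452 in pre-treatment controls, which also overlapped and lay below the first pair. The 2 control groups, which received the same ATRA treatment, therefore did not overlap with each other. Experiment and any batch between the experiments cannot be told apart.

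**Figure D1:**
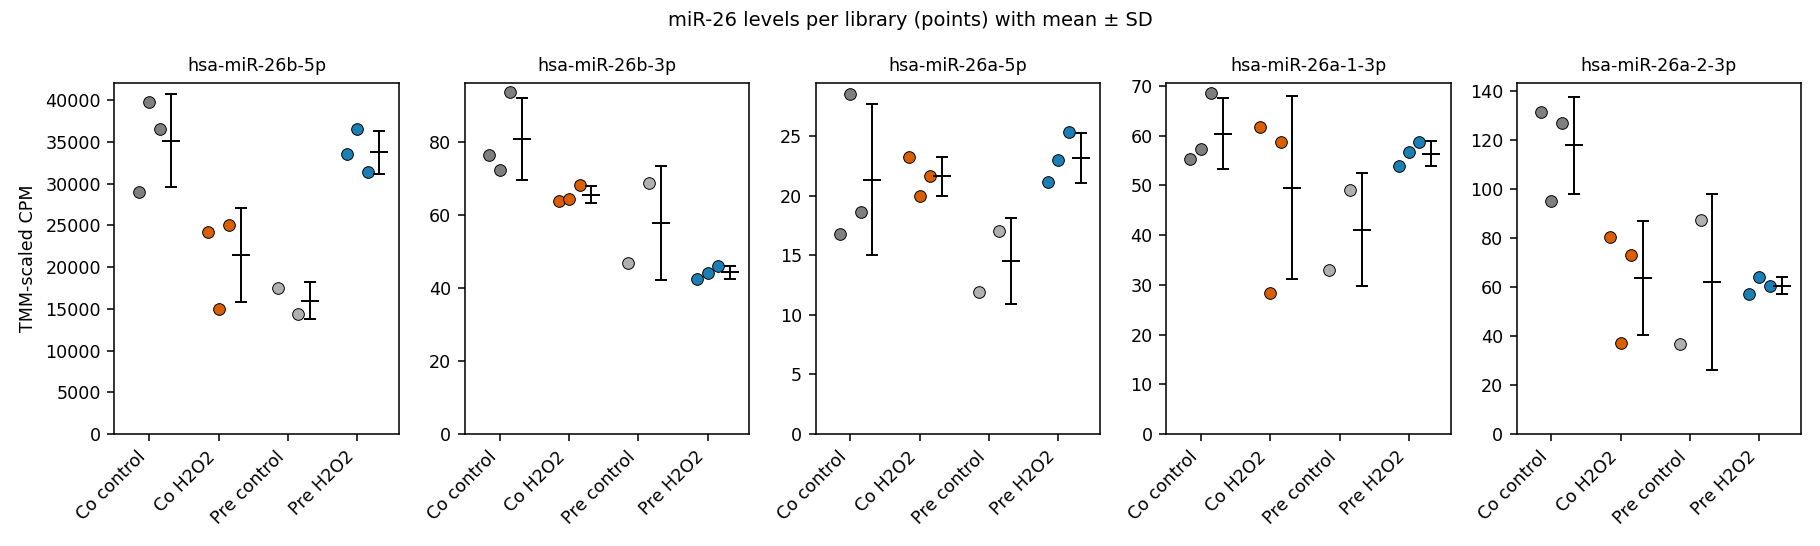
Level of each miR-26 member in each library (points, TMM-scaled CPM, each experiment scaled alone, axes from 0 and different for each member) with the mean and SD of each group beside them. miR-26b-5p was lower with H2O2 in co-treatment (21430 against 35169 CPM) and higher in pre-treatment (33790 against 15960 CPM), on a scale far above that of the other 4 members.

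The 4 rare members kept a partial order. In co-treatment controls the mean level was 118 CPM for miR-26a-2-3p, 80.8 for miR-26b-3p, 60.4 for miR-26a-1-3p and 21.4 for miR-26a-5p, and no neighbours in this order overlapped. With H2O2 in co-treatment, miR-26b-3p (65.5 CPM) and miR-26a-2-3p (63.7 CPM) overlapped, as did miR-26a-2-3p and miR-26a-1-3p (49.6 CPM). In pre-treatment controls all neighbours among the 3p arms overlapped (62.1, 57.8 and 41.1 CPM for miR-26a-2-3p, miR-26b-3p and miR-26a-1-3p). After H2O2 in pre-treatment, miR-26a-2-3p (60.6 CPM) and miR-26a-1-3p (56.4 CPM) overlapped and miR-26b-3p (44.3 CPM) lay below both. miR-26a-5p was the lowest member in every library, at 14.5 to 23.2 CPM in the group means.

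The count of miR-26a-5p was thus below those of the 3p arms of its own hairpins and 749 to 1962 times below that of miR-26b-5p. It is the member whose sequence has more than 1 place in the genome. Over the 2262 miRNAs matched to RefSeq, 47 of the 2128 that come from 1 hairpin had a mean above 2000 CPM, with miR-93-5p the highest at 115304 CPM. Of the 134 that come from more than 1 hairpin, 0 were above 2000 CPM and the highest was miR-128-3p at 1649 CPM. A mean of at least 10 CPM was reached by 339 of the 2128 and 18 of the 134. The median of these was 96.8 CPM for 1 hairpin and 136 CPM, the higher value, for more than 1. How reads that align to several places were counted is not given in the sources used here, and the part of this in the level of miR-26a-5p was not tested. Its level is therefore given as deposited and is uncertain, and so is each ratio that contains it.

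**Figure D2:**
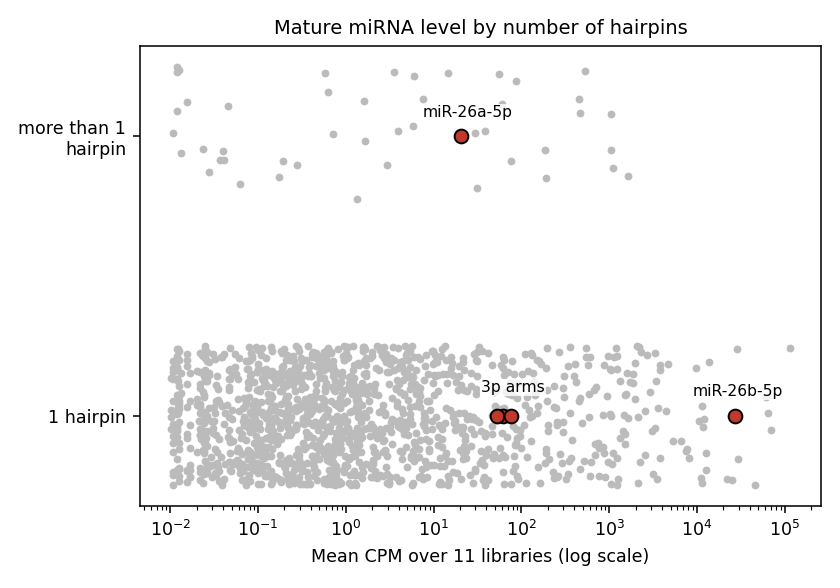
Mean CPM over the 11 libraries (log scale) of each mature miRNA with at least 1 count, for miRNAs from 1 hairpin and from more than 1 hairpin, with random vertical spread. The 5 miR-26 members are in red: miR-26a-5p sits in the upper row, in which no miRNA exceeded 1649 CPM, and miR-26b-5p sits among the most counted of the lower row.

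Among neural marker miRNAs, miR-137 had 77318 to 247992 counts, miR-375 12427 to 37792 and miR-7-5p 1731 to 4966 per library, while miR-9-5p had 14 to 46 and miR-124-3p, a defining miRNA of mature neurons, 0 to 7. As for miR-26a-5p, the level of any marker that comes from several hairpins is uncertain, so a low count need not mean a low level. The summed level of the 7 neural markers was 33620 to 41627 CPM in co-treatment controls and 18908 to 22492 with H2O2, and 15459 to 25913 in pre-treatment controls and 31095 to 37034 after H2O2. miR-137 made up 72.1% to 88.7% of this sum, which went in the same directions as miR-26b-5p, and its part in the results was not tested. Of the 6 neural markers tested, miR-137 included, 5 had a log2 fold change below 0 in co-treatment and 1 above. In pre-treatment 4 were above 0 and 2 below. Those below were miR-375 at -1.32, which was lowered by edgeR's exact test (FDR = 0.0168), and miR-218-5p at -0.39 (FDR = 0.653). The sums of 8 blood markers (16.3 to 123 CPM) and 6 epithelial markers (64.2 to 214 CPM) were highest in a pre-treatment control library, and the sum of 4 liver and muscle markers was 101 to 239 CPM in pre-treatment controls and 553 to 792 after H2O2. In these bulk samples fewer cells of a type and less RNA per cell cannot be told apart.

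Co-treatment asked how H2O2 present during differentiation changes miRNA levels. miR-26b-5p and miR-26a-2-3p were lower with H2O2, by 1.64-fold and 1.85-fold, and the other 3 members did not pass the test. A miRNA was called changed when edgeR's exact test gave a false discovery rate (FDR) under 0.05 and a log2 fold change (log2FC) of more than 0.6 in size. By this rule 26.2% of the 790 miRNAs tested were called, 15.6% as lowered. The 2 of 5 members called, both lowered, are to be read against these shares.

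miR-26b-5p had 29057, 39842 and 36608 CPM in the controls and 24228, 14965 and 25097 CPM with H2O2. All H2O2 libraries lay below all controls, and the second H2O2 library was the lowest. The log2FC was -0.71 (SE 0.23, FDR = 0.0472, edgeR's exact test). It was at the edge of the threshold: leaving out any 1 of the 6 libraries ended the call, with log2FC from -0.82 to -0.43, and so did scaling by library size (FDR = 0.0748) or with the size factors of DESeq2 (FDR = 0.0591). edgeR's quasi-likelihood test, which called 22.9% of the miRNAs, kept it (FDR = 0.0322).

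miR-26a-2-3p, the 3p arm from CTDSP2, had 132, 95.2 and 127 CPM in the controls and 80.5, 37.3 and 73.2 CPM with H2O2. Again all H2O2 libraries lay below all controls, with the second H2O2 library lowest. The log2FC was -0.89 (SE 0.31, FDR = 0.0262, edgeR's exact test). The call was lost without the first or the third control or without the second or the third H2O2 library, with log2FC from -0.98 to -0.56.

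miR-26b-3p, the other arm of the miR-26b hairpin, had 76.5, 72.4 and 93.6 CPM in the controls and 63.9, 64.4 and 68.2 CPM with H2O2. These libraries did not overlap either, but the log2FC of -0.30 (SE 0.26) did not pass (FDR = 0.432, edgeR's exact test). Non-overlap, seen in 3 of 5 members and each time with H2O2 below, was found in 41.6% of all miRNAs tested, in 22.2% with H2O2 below.

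miR-26a-1-3p, the 3p arm from CTDSPL, had 55.4, 57.3 and 68.6 CPM in the controls and 61.7, 28.3 and 58.8 CPM with H2O2. Only the second H2O2 library was below the controls, and the log2FC of -0.28 (FDR = 0.536, edgeR's exact test) became 0.07 without it. miR-26a-5p had 16.8, 28.6 and 18.7 CPM in the controls and 23.3, 20.0 and 21.6 CPM with H2O2, which overlapped, at a log2FC of 0.02 (SE 0.29, FDR = 0.983).

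Pre-treatment asked how H2O2 before differentiation changes miRNA levels after it. miR-26b-5p was 2.12-fold higher after H2O2, and the other 4 members did not pass the same rule. By that rule 15.3% of 868 miRNAs tested were called, 5.41% as raised and 9.91% as lowered, against 1 of 5 members raised and 0 lowered.

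miR-26b-5p had 17527 and 14394 CPM in the controls and 33519, 36492 and 31360 CPM after H2O2. All H2O2 libraries were above both controls. The log2FC was 1.08 (SE 0.25, FDR = 0.0188, edgeR's exact test). With edgeR's quasi-likelihood test, which called 1.96% of the miRNAs, the same log2FC had an FDR of 0.0590 and was not called, and leaving out any 1 of the H2O2 libraries also ended the call, with log2FC from 1.08 to 1.14.

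miR-26b-3p went the other way from its 5p arm. It had 46.9 and 68.8 CPM in the controls and 42.6, 44.1 and 46.2 CPM after H2O2, with all H2O2 libraries just below the lower control. The log2FC of -0.38 (SE 0.31) did not pass (FDR = 0.553, edgeR's exact test), and it was 0.15 without the second control.

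miR-26a-5p had 11.9 and 17.1 CPM in the controls and 21.2, 23.0 and 25.3 CPM after H2O2, and miR-26a-1-3p had 33.0 and 49.1 CPM against 53.8, 56.7 and 58.8 CPM. In both, all H2O2 libraries were above both controls, but the log2FC of 0.68 (SE 0.33, FDR = 0.316) and 0.46 (SE 0.32, FDR = 0.502) did not pass edgeR's exact test. miR-26a-2-3p had 36.6 and 87.5 CPM in the controls, on either side of the 57.2, 64.3 and 60.4 CPM after H2O2, and its log2FC was -0.03 (SE 0.41, FDR = 0.990). The 2 controls differed more from each other than the H2O2 libraries did in each rare member. Without the second control 4 members were called raised, miR-26a-2-3p among them at a log2FC of 0.96, in a fit that assumes the lone control to vary like the H2O2 libraries. Libraries did not overlap in 4 of 5 members, 3 of them with H2O2 above, and in 46% of all miRNAs tested, with H2O2 above in 23.3% and below in 22.7%.

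The responses of the experiments were compared as an interaction in 1 quasi-likelihood fit over the 11 libraries. miR-26b-5p differed, by 1.80 on the log2 scale (pre-treatment minus co-treatment, SE 0.36, FDR = 0.00358, edgeR's quasi-likelihood test). Among 945 miRNAs tested 27.3% passed an FDR of 0.05 in this test, and miR-26b-5p was the 1 member of 5. The differences of miR-26a-2-3p (0.90, FDR = 0.221), miR-26a-1-3p (0.77, FDR = 0.243), miR-26a-5p (0.67, FDR = 0.264) and miR-26b-3p (-0.05, SE 0.39, FDR = 0.930) did not pass. The call of miR-26b-5p held without each of the 11 libraries in turn.

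**Figure D3:**
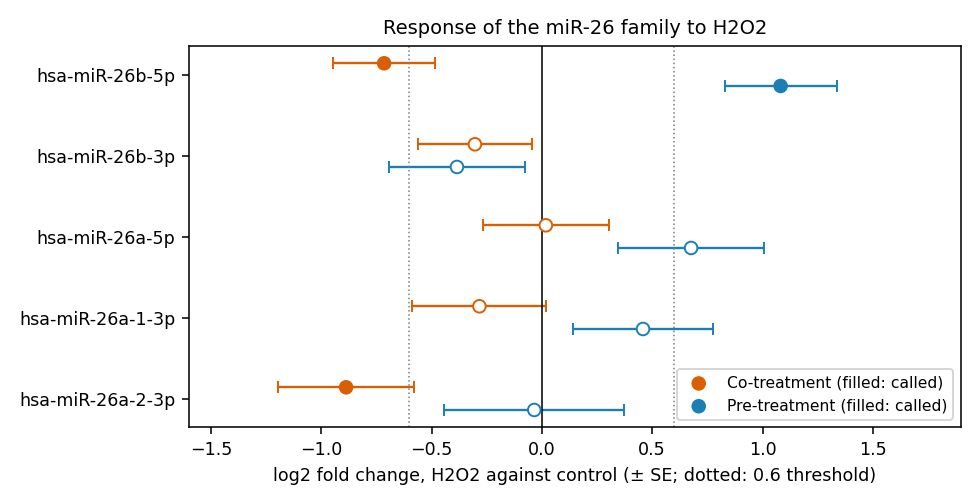
Log2FC of H2O2 against control for each member in co-treatment (orange) and pre-treatment (blue), with bars of 1 SE and dotted lines at the threshold of 0.6. Filled points were called: miR-26b-5p at -0.71 and 1.08 on opposite sides of 0, and miR-26a-2-3p at -0.89 in co-treatment.

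The responses went with base composition across miRNAs. Over the 363 miRNAs with a mean of at least 10 CPM and a known mature sequence, log2FC in co-treatment rose with GC content (Pearson's r 0.656, Spearman's rho 0.667). In pre-treatment it fell with GC content over 348 miRNAs (r -0.381, rho -0.437). These points share their libraries and are not independent replicates, so they are given as a description.

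miR-26b-5p and miR-26a-2-3p, the members called, were the 2 with the lowest GC content and fell in the band above 30 to 36% GC. In that band, members included, the median log2FC in co-treatment was -0.89, and 15 of 21 miRNAs were lowered and 0 raised. miR-26a-2-3p was itself the median miRNA of the band, and miR-26b-5p, at -0.71, lay between the quartiles of -1.10 and -0.68, close to the upper one. In pre-treatment the median of the band was 0.52 (quartiles -0.03 and 0.93, 22 miRNAs, 4 raised), with miR-26b-5p at 1.08 above the upper quartile and miR-26a-2-3p at -0.03 at the lower one.

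miR-26a-5p, in the band above 36 to 42% GC, stood above its band in co-treatment: its log2FC was 0.02, while the quartiles of 73 miRNAs were -1.09 and -0.29. In pre-treatment its 0.68 was between the quartiles of -0.20 and 0.84 (68 miRNAs). miR-26a-1-3p and miR-26b-3p, in the band above 42 to 48% GC, had -0.28 and -0.30 in co-treatment beside a band median of -0.31 (78 miRNAs). In pre-treatment the median of their band was 0.30 (69 miRNAs), beside 0.46 for miR-26a-1-3p and -0.38 for miR-26b-3p.

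With the trend on GC content taken out of each library (a lowess curve as an offset in the quasi-likelihood fit), none of the 5 members was called in either experiment. miR-26b-5p then had a log2FC of 0.14 (SE 0.22, FDR = 0.739) in co-treatment and 0.39 (SE 0.35, FDR = 0.496) in pre-treatment, and miR-26a-2-3p 0.02 (SE 0.26, FDR = 0.974) in co-treatment. Other values moved away from 0 with the offset. miR-26a-5p went from 0.02 to 0.60 (SE 0.28, FDR = 0.185) in co-treatment. In pre-treatment miR-26a-2-3p went from -0.03 to -0.57 (SE 0.25, FDR = 0.205) and miR-26b-3p from -0.38 to -0.54 (SE 0.21, FDR = 0.178). The remaining values moved towards 0. Without the offset, the same miRNAs and test gave calls for miR-26b-5p and miR-26a-2-3p in co-treatment, and for 0 members in pre-treatment. In the fits with the offset 7% of 700 miRNAs were called in co-treatment and 1.95% of 768 in pre-treatment. The interaction of miR-26b-5p was 0.27 with the offset (FDR = 0.701, edgeR's quasi-likelihood test), beside 90 of 842 miRNAs that passed. The offset removes whatever goes with GC content, from the cells or from the libraries, and these sources cannot be told apart here.

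**Figure D4:**
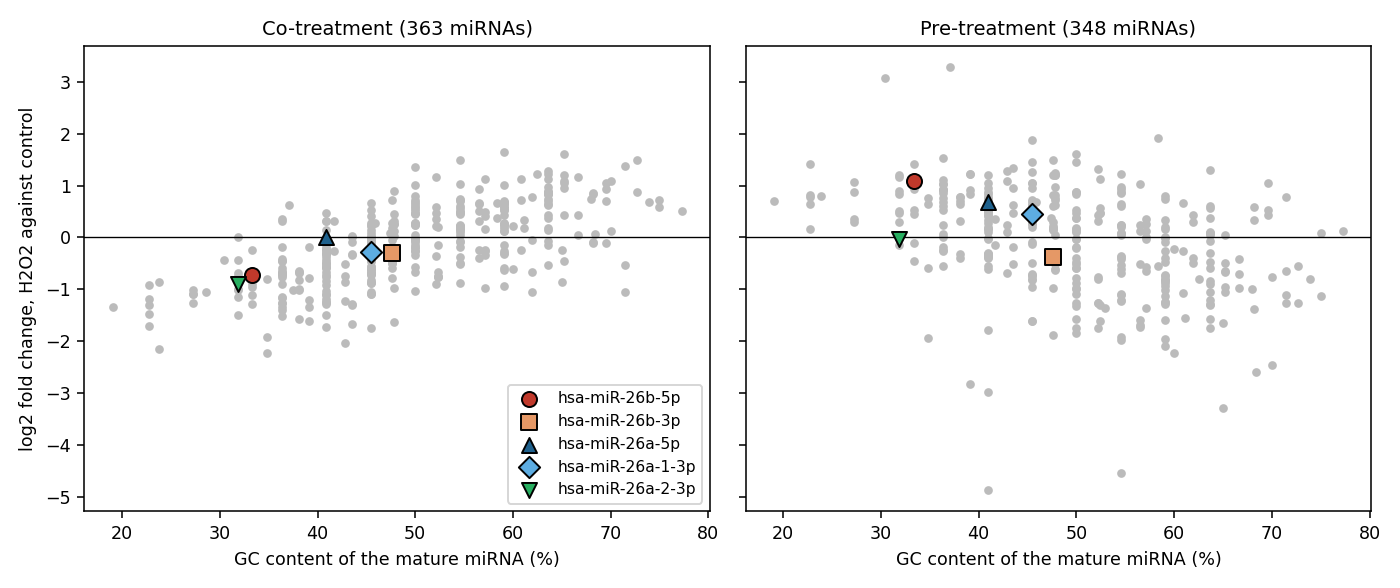
Log2FC of H2O2 against control and GC content of the mature sequence for miRNAs with a mean of at least 10 CPM (grey) and the miR-26 members (coloured symbols) in both experiments. The cloud rises with GC content in co-treatment (r 0.656) and falls in pre-treatment (r -0.381), and the members lie within it.

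Ratios of members within a library need no scaling between libraries. Their members differ in GC content, for which the ratios were not corrected. They were compared with an exact two-sided permutation test, with the p of the smaller tail doubled. This exact p then cannot go below 0.1 for 3 libraries against 3 or 0.2 for 3 against 2 (0.1 in 1 tail), so no ratio could pass 0.05. Over the 12 comparisons made, the Benjamini-Hochberg adjusted p was 0.3 or 0.4.

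The 2 arms of the miR-26b hairpin shifted against each other. In pre-treatment there were 374 and 209 counts of miR-26b-5p per count of miR-26b-3p in the controls and 787, 828 and 679 after H2O2. The ratio was higher in all H2O2 libraries, by 1.45 on the log2 scale or 2.72-fold (exact permutation p = 0.2, the smallest possible). In co-treatment it was 380, 550 and 391 in the controls and 379, 232 and 368 with H2O2, a shift of -0.45 (exact permutation p = 0.1, the smallest possible) in which the highest H2O2 library was barely below the lowest control. It was -0.22 without the second H2O2 library and -0.27 without the second control. With the GC offset, the log2FC of miR-26b-5p and miR-26b-3p was 0.14 (SE 0.22) and -0.18 (SE 0.23) in co-treatment. It was 0.39 (SE 0.35) and -0.54 (SE 0.21) in pre-treatment. None of these passed (FDR = 0.178 to 0.739, edgeR's quasi-likelihood test). In co-treatment the log2FC of the 5p arm was then above that of the 3p arm, opposite to the shift of the uncorrected ratio.

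Between the 2 arms that share the seed UCAAGUA, miR-26b-5p outnumbered miR-26a-5p 1727, 1394 and 1962 times in co-treatment controls and 1040, 749 and 1161 times with H2O2. The share of miR-26a-5p was thus higher in all H2O2 libraries, by 0.79 on the log2 scale (exact permutation p = 0.1). In pre-treatment the controls, at 1467 and 843 times, overlapped the H2O2 libraries at 1583, 1584 and 1238 (log2 difference -0.39, exact permutation p = 0.4).

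The 3p arms of the 2 miR-26a hairpins, from CTDSP2 and CTDSPL, also shifted against each other in co-treatment. There were 2.38, 1.66 and 1.85 counts of miR-26a-2-3p per count of miR-26a-1-3p in the controls and 1.31, 1.32 and 1.25 with H2O2, which did not overlap (log2 difference -0.59, exact permutation p = 0.1). GC content is 31.8% in miR-26a-2-3p and 45.5% in miR-26a-1-3p. With the GC offset their co-treatment log2FC was 0.0166 (SE 0.26) and 0.00845 (SE 0.29). The part of GC content in this ratio was not tested. In pre-treatment the controls, at 1.11 and 1.78, spanned part of the H2O2 values of 1.06, 1.13 and 1.03 (log2 difference -0.39, exact permutation p = 0.4).

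Per count of miR-26b-3p there were 1.72, 1.32 and 1.36 counts of miR-26a-2-3p in co-treatment controls and 1.26, 0.579 and 1.07 with H2O2. The H2O2 libraries lay below the controls (log2 difference -0.66, exact permutation p = 0.1), by -0.32 without the second H2O2 library. In pre-treatment the ratio was 0.782 and 1.27 in the controls and 1.34, 1.46 and 1.31 after H2O2, a log2 difference of 0.45 (exact permutation p = 0.2) that rested on the controls: it was 0.10 without the first and 0.81 without the second. miR-26a-5p against miR-26a-1-3p and miR-26a-2-3p overlapped between the groups in co-treatment (log2 differences 0.42 and 1.01, exact permutation p = 0.4 and 0.3) and did not in pre-treatment (0.21 and 0.60, exact permutation p = 0.2 for both).

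**Figure D5:**
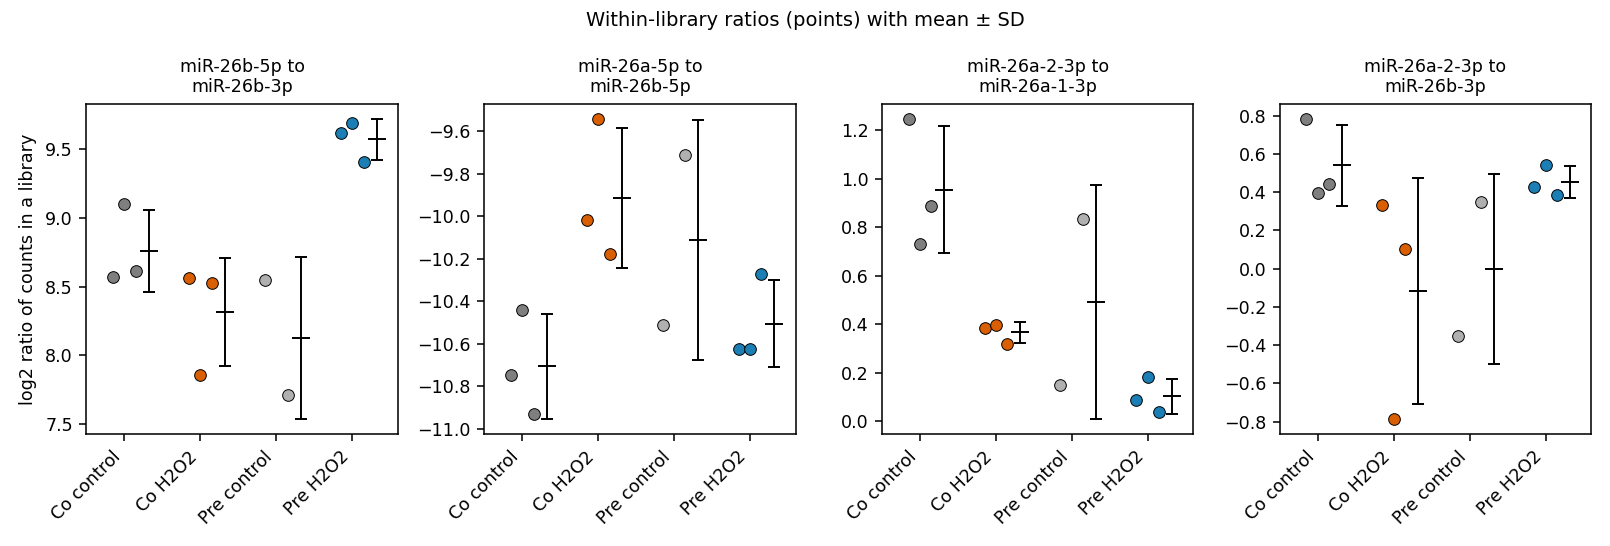
Log2 ratios of counts within each library (points, 0.5 added to each count) for 4 pairs of members, with the mean and SD of each group, each panel with its own axis. The ratio of miR-26b-5p to miR-26b-3p was higher after H2O2 in pre-treatment (means 9.57 against 8.13), and that of miR-26a-2-3p to miR-26a-1-3p was lower with H2O2 in co-treatment (0.37 against 0.96). The ratios were not corrected for GC content.

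Other miRNAs of the same circuits were counted from lists. The REST circuit holds miRNAs that REST represses or that repress REST cofactors, and 6 of its 9 members were tested. In co-treatment 1 was lowered, miR-9-5p, at a log2FC of -1.06 (SE 0.40, FDR = 0.0493, edgeR's exact test) and 14 to 46 counts per library, and 0 were raised, beside 15.6% lowered and 26.2% called in all over the miRNAs tested. The call of miR-9-5p was lost in edgeR's quasi-likelihood test (FDR = 0.0651), with library size (FDR = 0.0805) and with the size factors of DESeq2 (FDR = 0.0567). In pre-treatment 0 of the 6 were called. The median log2FC of the 6 was -0.20 and 0.04, in co-treatment and pre-treatment, beside -0.04 and -0.19 over all miRNAs tested.

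The list of miRNAs known to hold back the G1 to S transition, a step on which the CTDSP phosphatases and miR-26 are also known to act through RB1, had 19 members tested of 19. In co-treatment 2 were lowered, miR-15a-5p (log2FC -1.19, SE 0.24) and miR-424-5p (-1.51, SE 0.32), and 1 was raised, miR-34c-5p (1.30, SE 0.34). These 3 of 19 stand beside 26.2% of all miRNAs tested, so the list held no larger share of calls than the rest. In pre-treatment 5 were raised and 0 lowered: miR-15a-5p at 1.05, miR-16-5p at 1.06, miR-195-5p at 1.27 and miR-497-5p at 1.12, which all belong to the miR-15/16 family, and miR-34c-5p, which is induced by p53, at 1.62. Over all miRNAs 15.3% were called and 5.41% raised. None of the 5 passed edgeR's quasi-likelihood test, in which their FDR was 0.0520 to 0.0590. The list's median log2FC was -0.29 in co-treatment and 0.51 in pre-treatment, and that of the 5 miR-26 members was -0.30 and 0.46.

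Among the marker lists, the neural markers miR-137 (log2FC -1.10), miR-218-5p (-0.99) and miR-9-5p were lowered in co-treatment, of 6 tested, and miR-375 in pre-treatment. Of the 7 blood markers tested, miR-486-5p was raised and miR-142-5p lowered in co-treatment. In pre-treatment miR-451a and miR-144-5p were raised and miR-223-3p was lowered (log2FC -4.87, SE 1.42). Of 6 epithelial markers miR-205-5p was lowered in pre-treatment (log2FC -4.54, SE 1.15). Of 3 liver and muscle markers tested miR-122-5p and miR-1 were raised in pre-treatment. The pre-treatment controls lay far apart in the summed blood markers (16.3 and 123 CPM) and epithelial markers (64.2 and 214 CPM). The sums after H2O2, at most 34.8 and 91.8 CPM, lay between those of the controls. The part of a single control in the calls of miR-223-3p and miR-205-5p was not tested. The part of the blood, epithelial, and liver and muscle markers in the results of miR-26b-5p was not tested.

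Over the 11 libraries the miRNAs with the pattern most like that of miR-26b-5p, among 399 compared, were miR-195-5p (Pearson's r 0.92 of log2 CPM), miR-16-5p (0.91), miR-628-5p (0.89), miR-335-5p (0.88) and miR-199a-3p (0.86). For miR-26a-5p they were miR-29c-5p (0.87), miR-128-3p (0.85), miR-95-3p (0.82), miR-20b-5p (0.80) and miR-3065-5p (0.78). Of these, miR-195-5p and miR-16-5p are also on the G1 to S list. Within the family, miR-26b-5p had r 0.58 with miR-26a-5p, 0.75 with miR-26a-1-3p, 0.46 with miR-26a-2-3p and -0.07 with its own 3p arm, and miR-26a-2-3p had r 0.75 with miR-26a-1-3p and 0.66 with miR-26b-3p. These correlations share the libraries, their depth and the trend with GC content, and are a description.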

How the data were processed

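Small RNA libraries (QIAseq miRNA Library Kit, Illumina) were trimmed by the authors with Cutadapt 2.10, aligned to hg19 with Bowtie2 2.4.1 and counted with htseq-count 0.7.2. The authors deposited the counts per mature miRNA without normalization. The use of molecular identifiers, the miRBase release and the handling of reads with several alignments are not given in the sources used here. The authors' tables of fold changes and p-values were not used.

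Libraries were grouped by their titles. For each experiment, H2O2 and control libraries entered edgeR's exact test (edgeR 4.0.16, R 4.3.3) and the thresholds the study's methods name. Those methods scale to sequencing depth and name no TMM factors, which were chosen here. A miRNA was kept if it exceeded, in as many libraries as the smaller group has, the CPM to which 5 counts correspond in the smallest library. Benjamini-Hochberg adjustment ran over all miRNAs tested, and standard errors came from the quasi-likelihood fit. Totals were 5343953 to 8927582 counts (median 7425640), and intervals and limits cover counting error only. No 2 libraries were identical. Alternatives were the quasi-likelihood test, DESeq2 1.42.0, other scalings and filters, a joint fit, the replicate block, each library left out, and a GC offset (lowess span 0.5, fitted on miRNAs with at least 10 CPM, for the 88.6% and 88.5% of miRNAs tested with a mature sequence). The GC offset in the joint fit was chosen after seeing the data. Scripts were tested on simulated data. Sequences are from RefSeq (GRCh38.p14) and positions from GRCh37, to which hg19 corresponds. The members and lists were chosen with earlier results of these data known. Named miRNAs are all members, their seed partners, called members of the other lists, markers included, and for each 5p arm the 5 miRNAs with the highest correlation over the 11 libraries. miR-93-5p and miR-128-3p as the highest of their class, and the markers miR-7-5p and miR-124-3p, were named after their values were seen.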

Additional observations from a re-analysis of the deposited data

Results flagged for a closer look

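The response of miR-26b-5p differed between the experiments in a test of the difference itself: log2FC was 1.80 higher in pre-treatment than in co-treatment (FDR = 0.00358, edgeR's quasi-likelihood interaction). With the GC offset it was 0.27 (FDR = 0.701).

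The log2 ratio of miR-26b-5p to miR-26b-3p was higher in all H2O2 libraries of pre-treatment (difference 1.45) and lower in all those of co-treatment (-0.45). The log2 ratio of miR-26a-2-3p to miR-26b-3p was likewise higher in pre-treatment (0.45) and lower in co-treatment (-0.66). It was 0.10 without the first pre-treatment control and -0.32 without the second H2O2 library of co-treatment. The difference between the experiments was not tested for either ratio.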

How the results depend on the processing

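Of 433 values under alternative settings, 340 kept their direction and side of the threshold, or moved by less than their limit. The cause of the other changes was not tested. In co-treatment, miR-26b-5p was not called with library size (-0.62), DESeq2 size factors (-0.67), no filter (-0.65), the filter in all libraries (-0.51) or a joint fit (-0.69), or with a library left out (-0.82 to -0.43), and reversed with the GC offset (0.14). miR-26a-2-3p was not called with no filter (-0.82), the filter in all libraries (-0.69) or a joint fit (-0.87), ranged from -1.06 to -0.56 with a library left out, and was 0.0166 with the GC offset. miR-26a-1-3p reversed without the second H2O2 library (0.0662; range -0.43 to 0.0662) and with the GC offset (0.00845), and miR-26a-5p without the first control (-0.0548; range -0.0548 to 0.25). The number of members called, 2, became 1 with library size or DESeq2 size factors, 0 with no filter, the filter in all libraries, a joint fit or the GC offset, and 0 to 1 with a library left out. The number of miRNAs called, 207, became 84 in a joint fit, 49 with the GC offset and 107 to 274 with a library left out. Of those called 40.6% were raised with TMM, 50.5% with library size and 56.9% with the filter in all libraries.

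In pre-treatment, miR-26b-5p was not called by the quasi-likelihood test (1.08), also on miRNAs with a GC value alone (1.08), or with the GC offset (0.39), and ranged from 1.08 to 1.35 with a library left out. miR-26a-2-3p reversed with library size (0.0528), no filter (0.11) and a joint fit (0.0290), and ranged from -0.41 to 0.96 with a library left out. Without the second control, miR-26a-5p (1.19; range 0.56 to 1.19) and miR-26a-1-3p (1.01; range 0.32 to 1.01) were called and miR-26b-3p reversed (0.15; range -0.52 to 0.15). The number of members called, 1, became 0 by the quasi-likelihood test, on miRNAs with a GC value and with the GC offset, and 0 to 4 with a library left out. The number of miRNAs called, 133, became 17, 12 and 15 in the same order, 61 with no filter and 9 to 508 with a library left out.

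For the difference between the experiments, the GC offset gave 0.27 for miR-26b-5p, -0.30 for miR-26a-5p and -0.56 for miR-26a-2-3p, with 0 members and 90 miRNAs called. miR-26a-2-3p ranged from 0.43 to 1.58 with a library left out and was called at 1.58 without the second pre-treatment control. miR-26b-3p was 0.11 with no filter and -0.26 to 0.20 with a library left out. Between 1 and 2 members and 164 to 450 miRNAs were called with a library left out. The log2 difference of the ratio of miR-26a-5p to miR-26b-5p in pre-treatment was 0.00419 without the second control and -0.79 without the first.

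In co-treatment, deviations of same-numbered libraries correlated at 0.04, -0.24 and -0.26, and those of differently numbered ones at -0.12 to 0.32, so replicate numbers gave no clear pairing. In pre-treatment same-numbered libraries correlated at 0.36 and -0.02. With 2 controls the deviations of one are the negatives of the other, so these values cannot show or exclude pairing. With the replicate block, miR-26b-5p was not called in co-treatment (-0.74, 1 member called, 111 miRNAs) or pre-treatment (1.14, 0 members, 15 miRNAs), miR-26a-2-3p was 0.10 in pre-treatment, and 115 miRNAs differed between the experiments.

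The rare members had 89 to 919 counts per library and miR-26b-5p 88341 to 298290. In co-treatment the SE of log2FC was 0.26 to 0.31 for the rare members and 0.23 for miR-26b-5p. In pre-treatment it was 0.31 to 0.41 and 0.25. The part of depth in these was not tested. All pre-treatment values rest on 2 controls.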
